A study of Mus musculus with 18 samples.

Results

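The 4 chemicals of this series fall into a pair that the labels class as positive for liver tumours in bioassays and a pair that they class as negative, and the liver transcripts that set one pair apart from the other are described here. All 18 arrays of the series entered the comparison, each from the liver of a different female B6C3F1 mouse, a hybrid strain of cancer bioassays, with 3 animals in each of 6 groups. The positive pair was 1,5-naphthalenediamine, at 2000 ppm in feed, and 2,3-benzofuran, at 240 mg/kg by corn oil gavage on 5 days per week. The negative pair was N-(1-naphthyl)ethylenediamine, fed as the dihydrochloride at 2000 ppm, and pentachloronitrobenzene, a fungicide fed at 8187 ppm. The 3 fed chemicals shared 1 feed control group, and 2,3-benzofuran had its own corn oil gavage control group. All mice were 5 weeks old at the start, were exposed for 13 weeks and were 18 weeks old when the liver was taken.

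The liver clears foreign chemicals in steps. Cytochrome P450 enzymes oxidise them, transferases join them to glutathione or glucuronic acid, and efflux transporters carry the conjugates out of the hepatocyte. Much of the conjugation and antioxidant machinery is controlled by the transcription factor NRF2, while the aryl hydrocarbon receptor and the receptors CAR, PXR and PPAR-alpha control other sets of metabolic genes. The tumour suppressor p53 controls genes of the response to DNA damage.

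For each gene the effect of a chemical was its mean log2 signal minus that of its own control, and the class difference was the mean effect of the positive pair minus that of the negative pair. A gene is called here when limma's adjusted p was under 0.05 over the 12169 genes tested. A group of 3 animals per chemical gives the spread between animals, and there were only 2 chemicals in each class, so a p-value does not extend to other carcinogens. Class cannot be told apart from whatever else separates these particular chemicals, and route and dose also differ.

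The median gene lay 0.15 above control under the positive pair and 0.16 above it under the negative pair, a shift that cancels in the class difference, whose median over all genes was -0.00011. RNA integrity numbers averaged 8.90 ± 0.379 (SD, n = 6) in the positive and 8.18 ± 0.436 (n = 6) in the negative arrays, a difference of 0.717 (exact permutation test over 924 regroupings, two-sided, p = 0.026). A clock index, the centred level of Dbp, Nr1d1, Per1, Per2 and Per3 minus that of Arntl, Npas2 and Clock, averaged -1.08 ± 0.726 in the positive and 0.81 ± 1.85 in the negative arrays (same exact test, p = 0.0476). N-(1-naphthyl)ethylenediamine stood apart from the other chemicals in the index, at 2.28 ± 0.137 (n = 3). The others averaged -0.67 ± 1.43 on pentachloronitrobenzene, -0.87 ± 0.957 on 1,5-naphthalenediamine and -1.28 ± 0.523 on 2,3-benzofuran. Feed controls averaged -0.69 ± 1.05 and corn oil controls 1.22 ± 1.65. Corn oil controls 24 and 25 read 2.07 and 2.28, close to N-(1-naphthyl)ethylenediamine, and they enter the effect of 2,3-benzofuran. N-(1-naphthyl)ethylenediamine also had the lowest mean RNA integrity, 7.83 ± 0.231 against 8.53 to 8.97 for the other chemicals. These exact tests treat the 6 animals of a class as exchangeable, although they come from 2 chemicals. 18S ribosomal RNA signal, which was high on 5 of the treated arrays, did not separate the classes (difference -0.0069, same exact test, p = 0.998). The summed signal of 11 hepatocyte genes lay between 117659 and 132073 on every array. Group means below 4.25, the lowest array median, were not shown to lie above background.

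Positive and negative chemicals differed in 876 genes. Of these, 463 were higher under the positive pair (3.80% of the genes tested) and 413 were lower (3.39%). A class difference can come from a single chemical, so each positive chemical was also set against each negative one. Called higher and lower, respectively, were 427 (3.51%) and 239 (1.96%) genes for 1,5-naphthalenediamine against N-(1-naphthyl)ethylenediamine, and 268 (2.20%) and 222 (1.82%) against pentachloronitrobenzene. For the effect of 2,3-benzofuran the counts were 307 (2.52%) and 373 (3.07%) against N-(1-naphthyl)ethylenediamine, and 154 (1.27%) and 198 (1.63%) against pentachloronitrobenzene. In all 4 pairings 38 genes were higher (0.312% of all genes) and 20 were lower (0.164%), which together make 6.62% of the genes called in the class difference. Another 69 called genes passed in 3 pairings, 377 in 2, 254 in 1 and 118 in none.

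The 38 genes higher in all 4 pairings were led by Snhg11, Abcc4 and Cbr3, and 22 of them differed at least 2-fold. The control-subtracted arrays of the classes did not overlap in any of the 38, which the choice by all 4 pairings largely fixes and from which nothing is read; over all genes the share with the positive arrays on top was 2.68%. Every one of the 38 was also called higher than control under both positive chemicals, where 31.5% of all genes were called for 1,5-naphthalenediamine and 24.8% for 2,3-benzofuran. The same control-subtracted effects entered the choice of the 38, which favours such calls, so nothing is read from this count either. In 24 of the 38 at least 1 negative chemical was called higher than control as well, against 24.7% of all genes for N-(1-naphthyl)ethylenediamine and 14.6% for pentachloronitrobenzene. In those 24 the classes therefore differed in the size of a change that at least 1 negative chemical shared. The effect was numerically larger for 2,3-benzofuran than for 1,5-naphthalenediamine in 32 of the 38, although the positive chemicals were called different in only 2, and N-(1-naphthyl)ethylenediamine lay below pentachloronitrobenzene in 31.

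**Figure D1:**
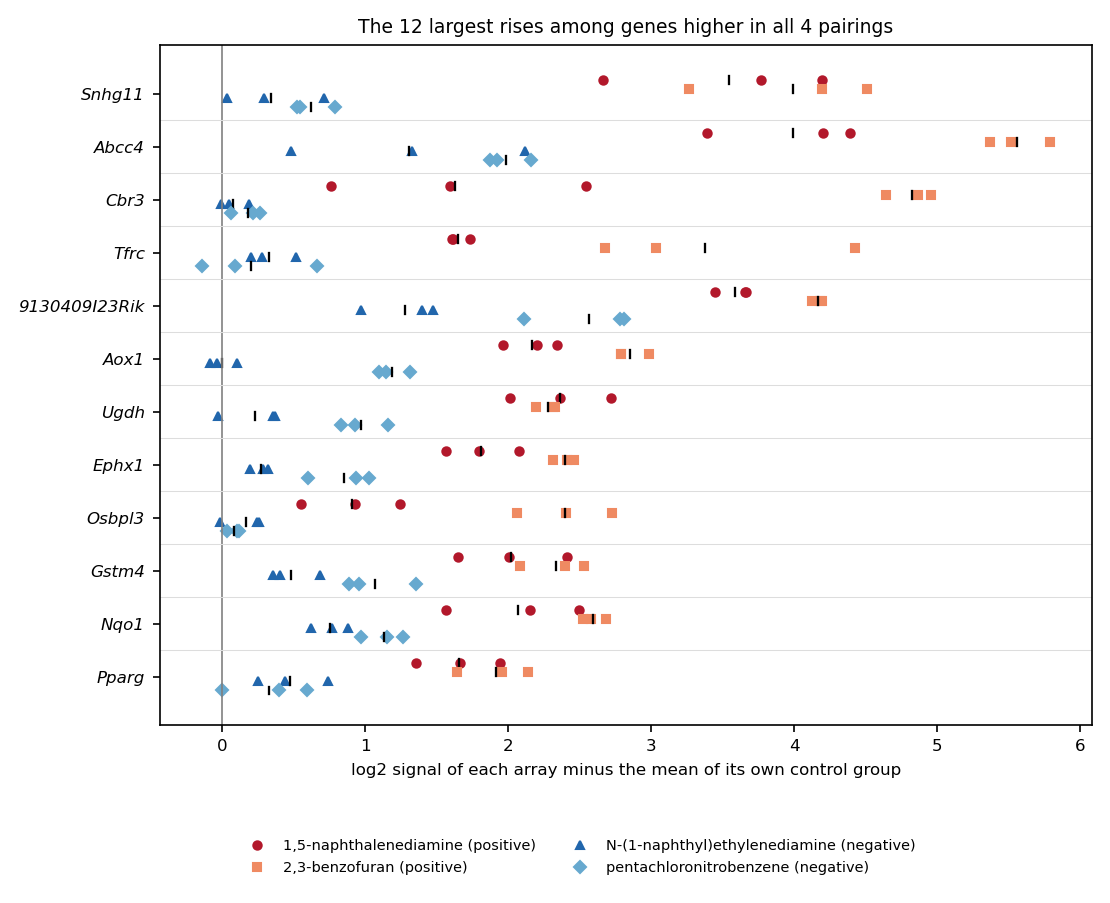
Control-subtracted log2 signal of the 12 genes with the largest class differences among those higher in all 4 pairings. Each point is 1 array minus the mean of its own control group, black ticks are the means of 3 arrays, and the grey line is the control level. Points of the positive chemicals lie to the right of all points of the negative chemicals in each gene, and the gap to zero for 9130409I23Rik and Abcc4 shows that the negative chemicals left the control level too.

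Snhg11, a long non-coding RNA that hosts small nucleolar RNAs, had the largest measured class difference. Its log2 signal was 6.29, 7.82 and 7.40 in the 3 mice on 1,5-naphthalenediamine and 7.48, 6.55 and 7.80 in those on 2,3-benzofuran. It was 4.34, 3.92 and 3.66 on N-(1-naphthyl)ethylenediamine and 4.15, 4.17 and 4.42 on pentachloronitrobenzene, against 3.69, 3.58 and 3.61 in feed controls and 3.29, 3.51 and 3.07 in corn oil controls. All 6 positive arrays thus lay at 6.29 or above and all others at 4.42 or below, close to or under the background level. The class difference was 3.28 ± 0.269 (SE; limma adjusted p = 4.06e-07), or 2.97 with its 4 dim group means set to the background level, which is below the 3.26 of Abcc4 treated the same way, so the order of these genes is not settled.

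Abcc4, an efflux pump of the hepatocyte's blood-facing membrane for conjugates and bile acids, read 7.29, 8.10 and 8.29 on 1,5-naphthalenediamine and 9.94, 9.67 and 9.53 on 2,3-benzofuran. The values were 6.02, 4.39 and 5.23 on N-(1-naphthyl)ethylenediamine, 5.77, 5.82 and 6.06 on pentachloronitrobenzene, 4.03, 3.91 and 3.77 in feed controls and 4.09, 4.24 and 4.14 in corn oil controls. Here the order was graded, with 2,3-benzofuran on top and the negative chemicals between the positive ones and the controls. The class difference was 3.13 ± 0.249 (limma adjusted p = 3.23e-07). Both control means lay below the background level, so the size of each effect against control is uncertain, and the class difference was 3.26 with these means set to that level. Abcg2, a pump of the bile-facing membrane, was also higher, by 1.11 ± 0.145.

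The carbonyl reductase gene Cbr3 differed in size between the positive chemicals. It read 4.39, 5.22 and 6.17 on 1,5-naphthalenediamine and 8.45, 8.54 and 8.23 on 2,3-benzofuran, whereas the 12 other arrays lay between 3.45 and 3.89. The effect of 1,5-naphthalenediamine minus that of 2,3-benzofuran was -3.19 ± 0.375 on the log2 scale (limma adjusted p = 0.000143), and 0.961% of all genes were called in that contrast. Its neighbour Cbr1, whose product reduces quinones and other carbonyls, had a smaller class difference of 1.01 ± 0.11.

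Several further risers encode enzymes that oxidise, hydrolyse or conjugate foreign compounds. Aldehyde oxidase 1, Aox1, read 10.40, 10.64 and 10.78 on 1,5-naphthalenediamine, 11.33, 11.13 and 11.13 on 2,3-benzofuran, 8.55, 8.36 and 8.41 on N-(1-naphthyl)ethylenediamine and 9.54, 9.76 and 9.59 on pentachloronitrobenzene, with controls between 8.11 and 8.67. It separated the negative chemicals from each other as well. Aox1 lay at the control level on N-(1-naphthyl)ethylenediamine and 1.19 ± 0.128 units higher on pentachloronitrobenzene (limma adjusted p = 2.36e-05), a contrast in which 2.69% of all genes were called. Its class difference was 1.92 ± 0.111 (limma adjusted p = 5.9e-09).

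Ephx1 encodes microsomal epoxide hydrolase, which opens reactive epoxides to diols. It read 12.25, 12.47 and 12.75 on 1,5-naphthalenediamine, 12.86, 12.81 and 12.71 on 2,3-benzofuran, 10.97, 10.87 and 11.00 on N-(1-naphthyl)ethylenediamine and 11.28, 11.71 and 11.61 on pentachloronitrobenzene, with controls between 10.23 and 10.82. All positive arrays lay at 12.25 or above and all others at 11.71 or below, a class difference of 1.54 ± 0.127 (limma adjusted p = 4.06e-07). The gene next to Ephx1 on the RefSeq map, 9130409I23Rik, was also among the leaders at 1.95 ± 0.22, although it had left the control level by 1.28 and 2.57 under the negative chemicals.

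Ugdh, which makes the UDP-glucuronic acid used in glucuronidation, was higher by 1.72 ± 0.124 (limma adjusted p = 1.03e-07). Its arrays read 11.40 to 12.10 and 11.96 to 12.09 on the positive chemicals, 9.36 to 9.76 and 10.22 to 10.55 on the negative ones and 9.28 to 9.78 in controls. Slc35d1, which carries nucleotide sugars into the endoplasmic reticulum, was higher by 0.70 ± 0.0982. Of 9 tested genes of glucuronidation 5 were higher and none lower, beside 3.80% and 3.39% of all genes, with Ugt2b35 and Ugt2b5 at 0.69 ± 0.125 and 0.49 ± 0.074 and a list median of 0.35.

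NRF2 targets carried more calls than any other list examined. Of 30 tested, 24 were higher, none was lower and 6 did not pass, where 3.80% of all genes were higher, and the list median was 0.75 against -0.00011 for all genes. By pairing, 25 and 18 of the 30 were higher under 1,5-naphthalenediamine than under N-(1-naphthyl)ethylenediamine and pentachloronitrobenzene, and 20 and 14 under 2,3-benzofuran. The 12 targets higher in all 4 pairings were Abcc4, Cbr3, Aox1, Ugdh, Ephx1, Gstm2, Cbr1, Gstp1, Gstm1, the quinone reductase gene Nqo1, the pentose phosphate gene Pgd and the ferritin heavy chain gene Fth1. The median effect of the list was 1.13 under the positive and 0.47 under the negative pair, where the all-gene medians were 0.15 and 0.16.

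Nqo1 shows the grading. It read 7.55, 8.47 and 8.13 on 1,5-naphthalenediamine, 8.79, 8.95 and 8.84 on 2,3-benzofuran, 6.86, 6.60 and 6.74 on N-(1-naphthyl)ethylenediamine, 6.95, 7.13 and 7.24 on pentachloronitrobenzene, 6.43, 5.50 and 6.00 in feed controls and 5.87, 6.29 and 6.64 in corn oil controls. The lowest positive array exceeded the highest negative array by a small margin, and the class difference was 1.39 ± 0.197 (limma adjusted p = 0.00022). Gclc and Gclm, the subunits of the enzyme that limits glutathione synthesis, differed by 0.97 ± 0.169 and 0.49 ± 0.132. Hmox1, heme oxygenase 1, did not pass, at 0.25 ± 0.135 (limma adjusted p = 0.295), and neither did the efflux pump gene Abcc3 at 0.17 ± 0.0903.

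Glutathione transferases, which join glutathione to reactive compounds, were higher in 9 of 20 cases and lower in none, where 3.80% of all genes were higher. By pairing, 10 and 9 were higher under 1,5-naphthalenediamine than under N-(1-naphthyl)ethylenediamine and pentachloronitrobenzene, and 6 and 5 under 2,3-benzofuran. Gstm4, Gstm2, Gstp1 and Gstm1 passed in all 4 pairings, with class differences of 1.41 ± 0.169, 1.26 ± 0.0906, 0.86 ± 0.0738 and 0.81 ± 0.0841. Gstm2 read 10.25, 10.25 and 10.50 on 1,5-naphthalenediamine and 10.66, 10.82 and 10.40 on 2,3-benzofuran, against 8.52 to 8.68 and 9.04 to 9.09 on the negative chemicals. Its controls differed from each other, at 8.25 to 8.37 in feed controls and 8.94 to 9.14 in corn oil controls (0.75 ± 0.105; limma adjusted p = 0.0045; 0.123% of all genes were called in that contrast). Gstm1, Gstm2 and Gstm4 lie side by side and are close in sequence, so the array may not tell them fully apart. Of the 38 risers 9 were measured by probe sets that can match several transcripts.

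Promoter windows from RefSeq (GRCm38.p6; 250 bases before to 50 after each start) were searched on both strands for TGACNNNGC, a core of the antioxidant response element that NRF2 binds, and for GCGTG, a core of the element bound by the aryl hydrocarbon receptor. Windows were found for 35 of the 38 risers and 17 of the 20 genes lower in all 4 pairings. A gene can have several windows, and windows are counted here. TGACNNNGC stood in 12 of 53 windows of the risers and in 2 of 21 of the fallers, against 12.4% of all 32851 windows. GCGTG stood in 27 and 5 of these windows, against 32.4% of all. For the 12 largest rises, 5 of 17 windows, from 4 genes, held TGACNNNGC and 8 held GCGTG. For the 12 largest falls, 1 of 14 windows held TGACNNNGC and 3 held GCGTG. Among the 12 NRF2 targets named above, 4 of 16 windows held TGACNNNGC and 9 held GCGTG. A match is a run of letters and not a shown binding site. The 250 bases before the start are printed for the leading risers with TGACNNNGC there, with each match on either strand in capitals, to show where in the promoter the letters fall.
Abcc4, first start, chr14:118706220-118706469, minus strand: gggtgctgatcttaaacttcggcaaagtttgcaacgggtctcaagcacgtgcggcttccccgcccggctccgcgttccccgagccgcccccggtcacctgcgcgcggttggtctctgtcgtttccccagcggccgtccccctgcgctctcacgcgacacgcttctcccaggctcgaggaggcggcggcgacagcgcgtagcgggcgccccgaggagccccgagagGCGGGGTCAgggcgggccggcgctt
Abcc4, second start, chr14:118676932-118677181, minus strand: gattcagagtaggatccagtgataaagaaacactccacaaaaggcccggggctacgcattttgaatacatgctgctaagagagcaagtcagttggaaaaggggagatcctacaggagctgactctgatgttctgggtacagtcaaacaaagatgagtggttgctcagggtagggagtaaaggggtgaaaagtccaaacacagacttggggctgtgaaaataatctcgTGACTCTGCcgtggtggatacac
9130409I23Rik, chr1:181050987-181051236, plus strand: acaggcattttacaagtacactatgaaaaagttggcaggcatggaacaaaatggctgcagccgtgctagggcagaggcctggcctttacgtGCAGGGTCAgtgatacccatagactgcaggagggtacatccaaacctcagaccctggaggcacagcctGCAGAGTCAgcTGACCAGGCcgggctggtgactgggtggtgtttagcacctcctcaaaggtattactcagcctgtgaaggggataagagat
Ugdh, chr5:65435843-65436092, minus strand: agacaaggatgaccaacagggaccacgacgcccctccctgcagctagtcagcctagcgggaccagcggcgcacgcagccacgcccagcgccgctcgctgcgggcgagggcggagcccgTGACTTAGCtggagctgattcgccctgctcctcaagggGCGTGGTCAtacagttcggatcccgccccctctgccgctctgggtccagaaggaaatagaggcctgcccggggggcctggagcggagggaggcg
Pparg, chr6:115362099-115362348, plus strand: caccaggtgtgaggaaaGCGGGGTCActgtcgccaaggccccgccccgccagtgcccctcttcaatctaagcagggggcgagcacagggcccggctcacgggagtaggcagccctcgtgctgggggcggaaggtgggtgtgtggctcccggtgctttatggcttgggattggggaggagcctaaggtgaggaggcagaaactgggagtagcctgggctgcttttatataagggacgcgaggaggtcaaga
The matches begin 25 and 23 bases before the Abcc4 starts, and the 3 of 9130409I23Rik lie between 159 and 80 bases before its start. Those of Ugdh begin 132 and 94 bases, and that of Pparg 233 bases, before the start.

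Genes of iron handling were among the risers. The transferrin receptor Tfrc, which takes up iron, read 7.92, 7.92 and 8.04 on 1,5-naphthalenediamine and 9.43, 10.82 and 9.08 on 2,3-benzofuran, against 6.17 to 6.97 on the negative chemicals and 5.83 to 6.70 in controls. Its class difference was 2.25 ± 0.284 (limma adjusted p = 6.55e-05). Tfrc kept its calls in all 4 pairings in 10 of the 18 fits that left out 1 array. It lost them when all kept probe sets of a gene were averaged, and with RNA integrity or the clock index as a covariate. The iron storage gene Fth1 was higher by 0.47 ± 0.0527 and Hfe, which takes part in iron sensing, by 0.67 ± 0.0881. Of 17 tested iron and heme genes 4 were higher and none lower, against 3.80% and 3.39% of all genes, the fourth being the iron transporter Slc11a2 at 1.17 ± 0.166, which was not called for 1,5-naphthalenediamine against pentachloronitrobenzene. Outside that list, and chosen after their values were seen, the heme transporter Slc48a1 and the biliverdin reductase gene Blvrb, whose product acts downstream of heme breakdown, were higher by 1.31 ± 0.112 and 0.83 ± 0.0998. 

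Pparg, a nuclear receptor that drives fat storage genes, read 7.03, 6.73 and 7.32 on 1,5-naphthalenediamine and 7.55, 7.05 and 7.36 on 2,3-benzofuran. The negative chemicals gave 5.37 to 6.11 and the controls 5.14 to 5.56. Pparg differed between the classes by 1.38 ± 0.157 (limma adjusted p = 1.87e-05), with no call between the members of either pair. Osbpl3, a lipid-binding protein gene, was higher by 1.53 ± 0.142 but with group means near background outside the positive arrays, and by 1.02 with those means set to the background level. Other risers included the tubulin gene Tubb4b at 1.19 ± 0.117, the endoplasmic reticulum nucleotidase gene Entpd5 at 1.10 ± 0.104, the lipid peroxide reductase gene Gpx4 at 0.54 ± 0.0743 and the retinal dehydrogenase gene Aldh1a1 at 0.51 ± 0.0724.

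The 20 genes lower in all 4 pairings had smaller differences, from 0.37 to 1.85 in size, and 7 of them differed at least 2-fold. Their control-subtracted arrays did not overlap between classes either, again largely fixed by the choice; over all genes the share with the positive arrays below was 1.87%. Both positive chemicals were called lower than control in 13 of the 20, where 8.41% and 7.58% of all genes were called lower for 1,5-naphthalenediamine and 2,3-benzofuran. The same control-subtracted effects entered the choice of the 20, which favours such calls. In 11 of the 20 at least 1 negative chemical was called higher than control. Of all genes, 24.7% were called higher for N-(1-naphthyl)ethylenediamine and 14.6% for pentachloronitrobenzene. In 2 of the 20 neither positive chemical was called lower. Part of the class gap in such genes lay above control under the negative pair, where the median of all genes also lay 0.16 above control. Calls below control were rarer in the negative pair, at 4.37% of all genes for N-(1-naphthyl)ethylenediamine and 3.87% for pentachloronitrobenzene.

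**Figure D2:**
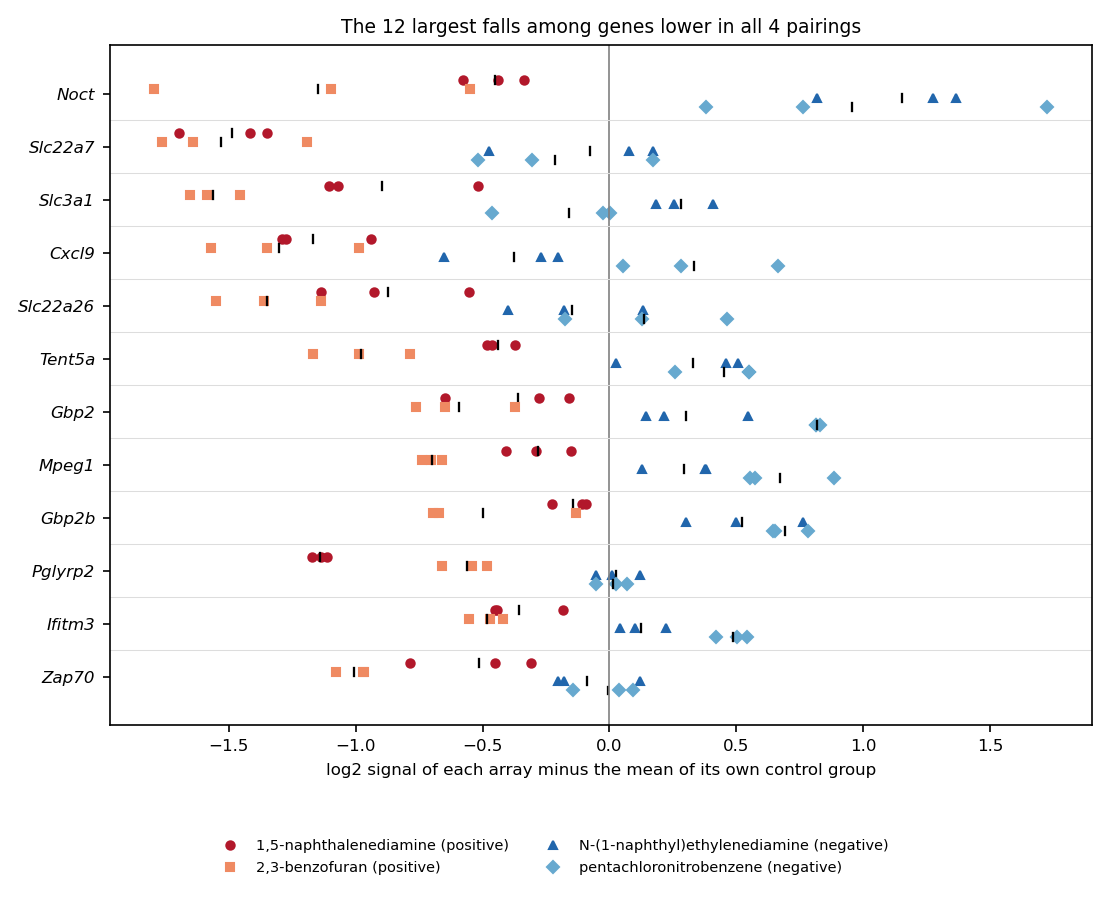
Control-subtracted log2 signal of the 12 genes with the largest class differences among those lower in all 4 pairings. Each point is 1 array minus the mean of its own control group, black ticks are means of 3 arrays, and the grey line is the control level. Positive arrays lie to the left of all negative arrays in each gene, with Slc22a7 below control under the positive pair and Noct above control under the negative pair.

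Transporter genes of the hepatocyte were among the leaders. Slc22a7, an organic anion transporter, read 7.38, 7.11 and 7.45 on 1,5-naphthalenediamine and 6.99, 7.11 and 7.57 on 2,3-benzofuran. The negative chemicals gave 8.33 to 8.97 and 8.29 to 8.97, close to the control range of 8.33 to 9.18. All positive arrays lay below every other array, with a class difference of -1.36 ± 0.195 (limma adjusted p = 0.000234). Slc3a1, a subunit of a cystine and dibasic amino acid transporter, differed by -1.29 ± 0.15, with 8.30 to 9.27 on the positive chemicals, 9.32 to 10.19 on the negative ones and 9.60 to 10.18 in controls. Slc22a26, another gene of the organic anion transporter family, differed by -1.11 ± 0.156.

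Noct, a clock-controlled gene also known as nocturnin, had the largest difference of the 20. It read 6.76, 7.00 and 6.90 on 1,5-naphthalenediamine, 7.04, 6.49 and 5.79 on 2,3-benzofuran, 8.15, 8.61 and 8.70 on N-(1-naphthyl)ethylenediamine and 9.06, 8.10 and 7.72 on pentachloronitrobenzene, with controls between 6.70 and 8.09. The lowest negative array lay above the highest positive array, and the controls overlapped both. Positive minus negative gave -1.85 ± 0.298 (limma adjusted p = 0.000726), and Noct kept its calls in all 4 pairings in 10 of the 18 fits that left out 1 array. Of 18 clock genes 4 were higher and 4 lower, and the clock index differed between the classes as given above. With that index as a covariate Noct was no longer called in all 4 pairings. The same held for most of the 58 genes called in all 4 pairings, of which 16 kept their calls.

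Some fallers encode plasma proteins made by the liver; except for Cfb they are in none of the gene lists and were put together after their values were seen. Itih1, which stabilises the extracellular matrix, differed by -0.71 ± 0.0857, the coagulation factor gene F7 by -0.66 ± 0.0769, the protease gene Hgfac by -0.56 ± 0.0752, the complement gene Cfb by -0.44 ± 0.0721 and Proc, protein C, by -0.37 ± 0.0568. Proc kept its calls in all 4 pairings in only 4 of the 18 fits that left out 1 array, and Cfb in 10. Pglyrp2, an amidase that cleaves bacterial cell wall fragments, read 8.53, 8.55 and 8.50 on 1,5-naphthalenediamine and 9.22, 9.28 and 9.10 on 2,3-benzofuran, against 9.52 to 9.82 in all other arrays. It was thus lower under both, more so under 1,5-naphthalenediamine (difference of effects -0.58, limma adjusted p = 0.0337), and the class difference was -0.87 ± 0.0771. Among 24 acute phase genes 7 were lower and 1, Orm3, was higher, beside 3.39% and 3.80% of all genes, with Lbp, the endotoxin-binding protein gene, at -0.82 ± 0.116 and Saa4 at -0.63 ± 0.0932.

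Immune genes were lower as well. Of 23 interferon response genes 17 were lower, none was higher and 6 did not pass, against 3.39% of all genes lower, and the list median was -0.84. The pairings show where that came from. Against pentachloronitrobenzene 22 of 23 were lower under 1,5-naphthalenediamine and 19 under 2,3-benzofuran, whereas against N-(1-naphthyl)ethylenediamine 3 and 6 were. The guanylate-binding protein gene Gbp3 read 8.18, 8.28 and 8.25 on pentachloronitrobenzene and between 5.61 and 6.82 on the 15 other arrays. The ubiquitin-like protease gene Usp18 read 8.14, 8.35 and 8.47 on pentachloronitrobenzene and 5.54 to 7.18 elsewhere. The median effect of the list was -0.28 under the positive and 0.56 under the negative pair. Its summed signal was 10240 to 11810 on pentachloronitrobenzene, 5545 to 6447 on N-(1-naphthyl)ethylenediamine, 4196 to 5870 on the positive chemicals and 4630 to 6557 in controls.

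Cxcl9 and Gbp2 were the interferon genes lower in all 4 pairings. The chemokine gene Cxcl9 read 6.60, 6.25 and 6.26 on 1,5-naphthalenediamine and 6.18, 6.76 and 6.40 on 2,3-benzofuran, below 6.88 to 7.33 on N-(1-naphthyl)ethylenediamine, 7.59 to 8.20 on pentachloronitrobenzene and 7.49 to 7.83 in controls. Positive minus negative was -1.21 ± 0.142 (limma adjusted p = 2.57e-05), and it lay below control under both positive chemicals. Gbp2 differed by -1.04 ± 0.121, with both positive means below the background level, Gbp2b beside it by -0.93 ± 0.143, Ifitm3 by -0.73 ± 0.0805 and the antigen presentation gene H2-D1 by -0.60 ± 0.0819. Gbp and H2 genes have close relatives that share probe sequence, and 5 of the 20 fallers were measured by probe sets that can match several transcripts.

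Markers of resident macrophages were also lower in part. Of 19 tested macrophage and Kupffer cell markers 7 were lower, 1 (Cd14) was higher and 11 did not pass, against 3.39% of all genes lower, with a list median of -0.49. By pairing the calls were fewer: 2 and 4 were lower under 1,5-naphthalenediamine than under N-(1-naphthyl)ethylenediamine and pentachloronitrobenzene, and 1 and 1 under 2,3-benzofuran. The pore-forming protein gene Mpeg1 was lower in all 4 pairings at -0.97 ± 0.115, reading 8.14 to 8.39 on the positive chemicals, 8.67 to 9.43 on the negative ones and 8.26 to 8.96 in controls. The Kupffer cell lectin gene Clec4f differed by -0.60 ± 0.128 and the growth factor receptor gene Csf1r by -0.60 ± 0.126. The summed signal of the list ranged from 3401 to 5103 in positive, 4960 to 7144 in negative and 4259 to 6758 in control arrays. In tissue RNA, fewer macrophages and less of these transcripts per cell cannot be told apart. By limma, 0 of 15 sinusoidal endothelial, 0 of 6 neutrophil, 0 of 4 bile duct and 0 of 1 erythroid markers were called, with 6, 1, 0 and 0 at an unadjusted p under 0.05, and stellate and lymphocyte markers were lower in 3 of 15 and 2 of 8 cases. The part of these cells in the immune gene difference was not tested.

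**Figure D3:**
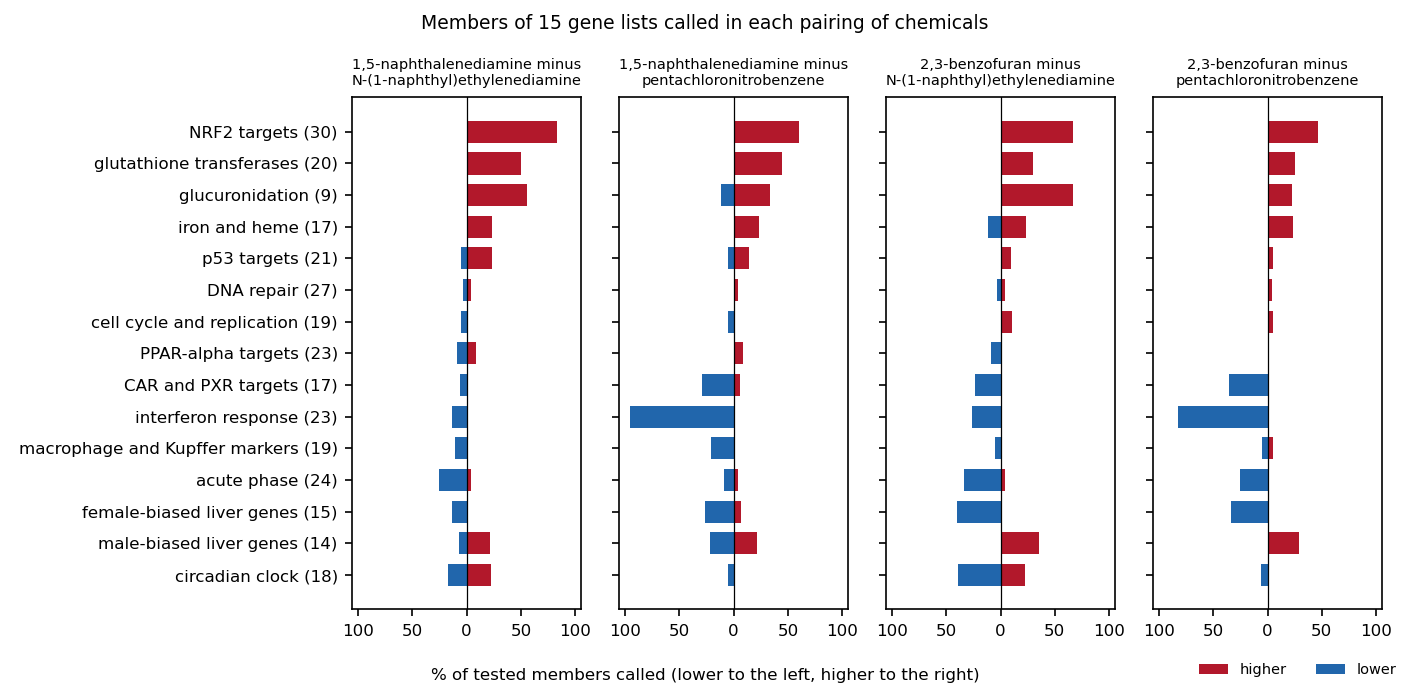
Share of the tested members of 15 gene lists called in each pairing of a positive with a negative chemical. Bars to the right are members higher under the positive chemical, bars to the left members lower, in percent of the number tested, which stands in parentheses. NRF2 targets were higher in every panel, with 14 to 25 of 30 called, whereas interferon genes were lower mainly in the panels against pentachloronitrobenzene.

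Lists of DNA damage and proliferation held 0 to 3 higher and 1 to 2 lower calls each, to be read beside 3.80% of all genes higher and 3.39% lower. Of 21 p53 targets 3 were higher, Cdkn1a, Aen and Ephx1, and Ccnd1 was lower, and Ephx1 is also in the NRF2 list. Cdkn1a, the cell cycle inhibitor p21, read 7.99, 8.46 and 8.48 on 1,5-naphthalenediamine, 7.34, 7.53 and 6.72 on 2,3-benzofuran, 5.64, 5.03 and 6.70 on N-(1-naphthyl)ethylenediamine and 6.65, 8.11 and 6.07 on pentachloronitrobenzene. Its controls were spread as widely, at 6.28, 8.26 and 6.90 in feed controls and 6.40, 4.85 and 5.26 in corn oil controls. Positive minus negative was 2.21 ± 0.459 (limma adjusted p = 0.0056), and it was called against N-(1-naphthyl)ethylenediamine and not against pentachloronitrobenzene. Mdm2, which restrains p53, did not pass at 0.33 ± 0.101 (limma adjusted p = 0.0522), and neither did Ccng1 at 0.29 ± 0.134.

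Among 19 cell cycle and replication genes Mcm2 was higher at 0.48 ± 0.117, near background, and the cyclin gene Ccnd1 was lower at -1.13 ± 0.188. Ccnd1 read 7.13 to 7.66 on the positive chemicals, 8.41 to 8.86 on the negative ones and 8.10 to 9.19 in controls. Against N-(1-naphthyl)ethylenediamine and pentachloronitrobenzene, lower calls in this list were 1 and 1 for 1,5-naphthalenediamine and 0 and 0 for 2,3-benzofuran. Higher calls were 0 and 0 for 1,5-naphthalenediamine and 2 and 1 for 2,3-benzofuran. Neither Ccnd1 nor Mcm2 was thus called for both positive chemicals. Of 27 DNA repair genes the checkpoint kinase gene Atr and the mismatch repair gene Msh6 were higher, at 0.67 ± 0.109 and 0.47 ± 0.116, and Ercc5 was lower at -0.38 ± 0.107. Of 17 fetal and tumour-associated liver genes 3 were higher and 1 lower, of 26 growth control genes 0 and 2, and of 19 apoptosis regulators 0 and 1. By limma, 0 of 14 cytosolic ribosomal and 0 of 20 respiratory chain genes were called, with 1 and 2 at an unadjusted p under 0.05.

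Receptor-controlled metabolic genes differed by list in the class difference. Of 5 aryl hydrocarbon receptor targets Cyp1a1 and Nqo1 were higher and Cyp1a2 lower. Cyp1a2 was higher under 1,5-naphthalenediamine than under pentachloronitrobenzene, by 0.56 ± 0.126, and its lower calls were those of 2,3-benzofuran, at -1.29 ± 0.179 and -0.89 ± 0.179 against N-(1-naphthyl)ethylenediamine and pentachloronitrobenzene. Cyp1a1, the P450 most readily induced through that receptor, read 5.88, 7.46 and 7.63 on 1,5-naphthalenediamine and 3.47 to 4.16 on the 15 other arrays, which lie below the background level, so its class difference of 1.34 ± 0.252 rests on 1 chemical. Of 17 CAR and PXR targets 6 were lower and none higher, beside 3.39% and 3.80% of all genes, with Cyp2c54 at -0.39 ± 0.0682 and Cyp3a44 at -1.18 ± 0.237. By pairing, 1 and 5 were lower under 1,5-naphthalenediamine than under N-(1-naphthyl)ethylenediamine and pentachloronitrobenzene, and 4 and 6 under 2,3-benzofuran. Under 1,5-naphthalenediamine 1 target was higher than under pentachloronitrobenzene, and none was called in all 4 pairings. Between 1,5-naphthalenediamine and N-(1-naphthyl)ethylenediamine neither Cyp2c54 (-0.21) nor Cyp3a44 (0.22) was called. Of 23 PPAR-alpha targets Acot3 was lower at -1.43 ± 0.256 and the other 22 did not pass. Cholesterol synthesis genes were lower in 6 of 20 cases, with Nsdhl at -0.56 ± 0.105 and none called in all 4 pairings, where 3.39% of all genes were lower. The lower calls by pairing were all of 2,3-benzofuran, 3 against N-(1-naphthyl)ethylenediamine and 12 against pentachloronitrobenzene, whereas 5 genes were higher under 1,5-naphthalenediamine than under N-(1-naphthyl)ethylenediamine.

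Sex-biased liver genes differed between the classes, with exceptions by pairing. Of 15 female-biased genes 8 were lower and none higher, with a list median of -0.79, and of 14 male-biased genes 5 were higher and 1 lower, where 3.80% of all genes were higher and 3.39% lower. For 1,5-naphthalenediamine against pentachloronitrobenzene, 3 male-biased genes were higher and 3 lower, and 1 female-biased gene was higher and 4 lower. Against N-(1-naphthyl)ethylenediamine it had 3 male-biased genes higher and 1 lower, and 2 female-biased genes lower. More calls came from 2,3-benzofuran. Against N-(1-naphthyl)ethylenediamine and pentachloronitrobenzene it had 5 and 4 male-biased genes higher, and 6 and 5 female-biased genes lower. The male-biased P450 gene Cyp2d9 was higher by 1.96 ± 0.197. Cyp2d9 lay 2.97 above control on 2,3-benzofuran and -0.21 from control on pentachloronitrobenzene, and it was not called between the naphthylamines. The female-biased oxidase gene Hao2 differed by -2.41 ± 0.413 and Cyp17a1, a steroid hydroxylase, by -1.31 ± 0.303. Only Gstp1 of these lists was called in all 4 pairings.

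Outside the 58 genes, 818 more were called in the class difference. The positive chemicals differed from each other in 56 of these, where 0.961% of all genes were called. The negative ones differed in 109, where 2.69% of all genes were called. Both pairs differed in 13, and in 666 neither pair was called different. A missing call does not show that 2 effects were equal. The 8 largest class differences of this kind were those of Dbp, Sult2a2, Cyp3a16, Cyp4a12a, Hao2, Elovl3, Cdkn1a and Hspb1, and the first of them exceeded in size every gene called in all 4 pairings.

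**Figure D4:**
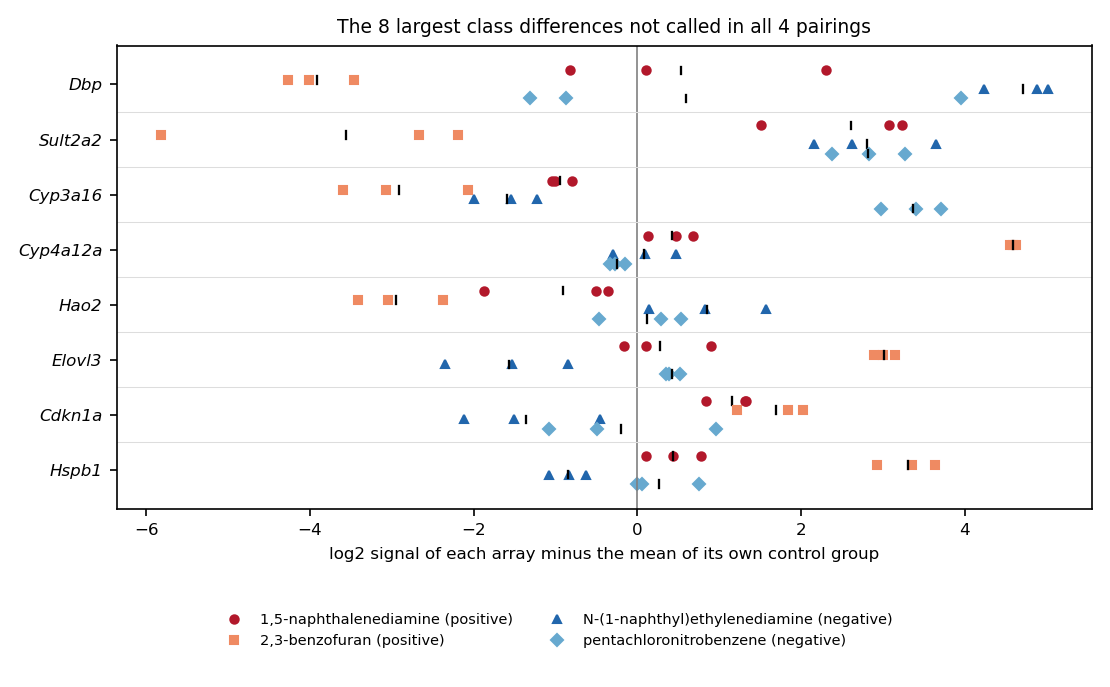
Control-subtracted log2 signal of the 8 genes with the largest class differences among those not called in all 4 pairings. Each point is 1 array minus the mean of its own control group, black ticks are means of 3 arrays, and the grey line is the control level. Arrays of 2,3-benzofuran lie apart from all others for Cyp4a12a, Elovl3, Hspb1, Sult2a2, Hao2 and Dbp, and those of pentachloronitrobenzene for Cyp3a16. For Elovl3 and Hspb1 the arrays of N-(1-naphthyl)ethylenediamine also lie below control.

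Single chemicals stood out in most of them. Cyp4a12a, a male-biased fatty acid hydroxylase gene, read 7.92, 7.96 and 7.89 on 2,3-benzofuran and 3.18 to 4.24, at or below background, on the 15 other arrays. Hspb1, a small heat shock protein gene, read 12.09, 11.37 and 11.81 on 2,3-benzofuran, 8.89 to 9.56 on 1,5-naphthalenediamine, 7.70 to 8.16 on N-(1-naphthyl)ethylenediamine, 8.78 to 9.54 on pentachloronitrobenzene and 8.28 to 8.83 in controls. Sult2a2, a female-biased sulfotransferase gene, had effects of -3.56 for 2,3-benzofuran and 2.61, 2.81 and 2.82 for the fed chemicals, so the positive pair went opposite ways. Cyp3a16 read 8.21, 7.91 and 7.47 on pentachloronitrobenzene and 2.50 to 4.13 on the other treated arrays, while its controls ran from 3.10 to 7.82. Asns, asparagine synthetase of the amino acid stress response, was high only on 2,3-benzofuran, at 7.67, 7.46 and 8.27 against 4.30 to 4.88 elsewhere.

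Dbp, a clock output gene, varied within groups. It read 4.40, 7.53 and 5.33 on 1,5-naphthalenediamine, 4.59, 4.33 and 5.15 on 2,3-benzofuran, 9.45, 10.10 and 10.23 on N-(1-naphthyl)ethylenediamine, 4.35, 3.90 and 9.17 on pentachloronitrobenzene, 4.00, 4.11 and 7.53 in feed controls and 5.40, 10.08 and 10.33 in corn oil controls. Animals on pentachloronitrobenzene, and those of the corn oil control, differed among themselves by more than the class difference of -4.34 ± 1.13 (limma adjusted p = 0.0237). With the clock index, to which Dbp itself contributes, as a covariate, the sign turned to 0.68.

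The naphthylamines give the only pairing at a matched route, dose level and control. Both were fed at 2000 ppm by weight, the latter as a salt, and they differ in that 1,5-naphthalenediamine carries a second amino group on the ring system where N-(1-naphthyl)ethylenediamine carries an aminoethyl chain on its nitrogen. Their arrays did not overlap in RNA integrity, at 8.8 to 8.9 on 1,5-naphthalenediamine against 7.7 to 8.1 on N-(1-naphthyl)ethylenediamine. Nor did they overlap in the clock index, at -1.85 to 0.057 against 2.14 to 2.42. The part of these measures in the differences was not tested. Among the genes described here, the largest called differences were those of Snhg11 (3.20 ± 0.311), Cyp1a1 (3.07 ± 0.291; limma adjusted p = 3.96e-06), Abcc4 (2.68 ± 0.287) and Cdkn1a (2.52 ± 0.53; limma adjusted p = 0.00854). Cd36, a fatty acid uptake gene, and Scd2, a fatty acid desaturase gene, were higher under 1,5-naphthalenediamine by 1.91 ± 0.306 and 1.88 ± 0.183, and Ccnd1 differed by -1.27 ± 0.217. The clock genes Arntl and Npas2 were called higher by 2.12 and 1.79, and Noct and Per3 were called lower at -1.60 and -1.45. Snhg11, Cyp1a1 and Scd2 lay below background on N-(1-naphthyl)ethylenediamine, so the sizes of their differences are uncertain. Cyp1a2, the constitutive liver P450 under the same receptor as Cyp1a1, was not called different, at 0.15 with a 95% interval from -0.11 to 0.42, with effects of 1.56 and 1.41 against the shared control. Sult2a2 was not called different either, with an interval from -1.98 to 1.58 that leaves room for large differences both ways.

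The number of calls changed when arrays were left out or covariates added. Of the 58 genes 17 (13 higher, 4 lower) were called in all 4 pairings whichever array was left out. Snhg11, Abcc4, Aox1, Ephx1 and Slc48a1 were also called under each of the other settings in which they were measured. At the other end, Proc, Zap70 and Lrrc51 kept their calls in 4 of the 18 fits that left out 1 array, and Pgd and Rnf11 in 5. With RNA integrity as a covariate 149 genes were called in the class difference and 16 of the 58 in all 4 pairings, and with the clock index 257 and 16. Without the 5 arrays of highest 18S signal, which leaves 1 array each for N-(1-naphthyl)ethylenediamine and 2,3-benzofuran, 7 of the 58 were called in all 4 pairings. The part of RNA integrity and of the clock index in the class difference was not tested further.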

How the data were processed

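The deposited values are log2 signals of 18 Affymetrix mouse arrays in the authors' series table; per the labels' protocols, RNA was extracted with Trizol and RNeasy and biotin-labelled. The authors' normalization is not given in the sources used here. The platform annotation gives 1 gene for 34945 of the 45101 probe sets, several for 932 and none for 9160, and 34741 symbols were updated through RefSeq. Probe sets above the array median in at least 3 arrays were kept, with the one of highest mean per gene. limma 3.58.1 (R 4.3.3) was fitted to the 6 group means over 18 arrays (12 residual degrees of freedom, empirical Bayes with a trend), and p-values were Benjamini-Hochberg adjusted over 12169 genes within each contrast. Replicate numbers name animals and occur once each. The number of arrays limits the precision.

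Genes named were the 12 largest rises and falls called in all 4 pairings, up to 4 members of each of 38 lists by moderated t plus those called in all 4, and the 8 largest differences not called in all 4. Other genes given with values were chosen after their values were seen. The members and lists were chosen with earlier results of these data known. Counts in lists are to be read beside the 3.80% of all genes called higher and 3.39% called lower. Lists not described in the report gave these counts higher and lower: fatty acid synthesis 1 and 2 of 18, bile acid genes 1 and 1 of 21, amino acid stress 4 and 1 of 20, endoplasmic reticulum chaperones 2 and 0 of 18, heat shock proteins 4 and 1 of 12, proteasome 4 and 0 of 31, periportal 1 and 1 of 12, pericentral 0 and 4 of 15, metallothioneins and zinc 1 and 2 of 8, hepatocyte markers 0 and 1 of 11.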

Additional observations from a re-analysis of the deposited data

Results flagged for a closer look

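Several genes that separated the classes also differed within a class. Between the positive chemicals, the effect of 1,5-naphthalenediamine minus that of 2,3-benzofuran was -3.19 for Cbr3 (limma adjusted p = 0.000143), -1.49 for Osbpl3 (0.00227), -0.58 for Pglyrp2 (0.0337), 6.16 for Sult2a2 (0.0184), -4.17 for Cyp4a12a (3.76e-09), -2.74 for Elovl3 (0.0162) and -2.87 for Hspb1 (1.66e-05).

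Between the negative chemicals, N-(1-naphthyl)ethylenediamine minus pentachloronitrobenzene was -1.29 for 9130409I23Rik (limma adjusted p = 0.00907), -1.19 for Aox1 (2.36e-05), -0.71 for Cxcl9 (0.0249), -0.53 for Entpd5 (0.0224), -0.59 for Ephx1 (0.0375), -0.44 for Gstm1 (0.0199), -0.44 for Gstm2 (0.0294), -0.47 for Gstp1 (0.00425), -0.37 for Ifitm3 (0.0412), -0.93 for Tubb4b (0.000552) and -0.74 for Ugdh (0.0075). It was -4.96 for Cyp3a16 (limma adjusted p = 0.00095), -1.99 for Elovl3 (0.00542) and -1.12 for Hspb1 (0.0044).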

How the results depend on the processing

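The main counts were 876 genes called, 463 higher and 413 lower, and 58 in all 4 pairings. They were 1447 called, 874 higher and 103 in all 4 with array weights, and 94 in all 4 with quantile normalization, of which 57 were among the 58. Leaving the controls out, using the feed control for 2,3-benzofuran and pooling both controls are algebraically the same here, and gave 1602 called, 1063 higher and 116 in all 4. RNA integrity as a covariate gave 149, 84 higher, 65 lower and 16 in all 4, and the clock index 257, 109, 148 and 18. An adjusted p under 0.01 gave 428, 226, 202 and 16, and a difference of at least 1 gave 96, 53, 43 and 29. 1,5-naphthalenediamine alone gave 245 lower, 2,3-benzofuran alone 488 called, 233 higher and 255 lower, and pentachloronitrobenzene as the only negative chemical 525, 258 and 267. Without the 5 arrays of highest 18S signal, and so with fewer arrays, the counts were 259, 136, 123 and 7. Leaving out 1 array at a time gave 656 to 1348 called, 357 to 911 higher and 31 to 87 in all 4; the highest came without feed control 29 (1348 called, 911 higher), and 31, 33 and 37 in all 4 came without 1,5-naphthalenediamine 5 and pentachloronitrobenzene 16 and 20. Of the class differences of 138 genes, these turned sign: Dbp with the clock index (0.68), Bid without controls or with either shared control (0.15) and with 1,5-naphthalenediamine alone (0.24), Cyp1a2 (0.35), Idi1 (0.12), Nsdhl (0.0011) and Psat1 (-0.096) with 1,5-naphthalenediamine alone, Cyp1a1 (-0.41) and Scd2 (-0.37) with 2,3-benzofuran alone, and Idi1 against N-(1-naphthyl)ethylenediamine alone (0.13). None of these turned values was called, and where no value above shows the cause, the cause was not tested. No paired analysis was possible because the groups share no replicate numbers. Dim probe sets limit the sizes of Snhg11, Abcc4, Cbr3, Osbpl3, Cyp1a1, Cyp4a12a, Cyp3a16, Scd2, Psat1, Mcm2 and Gbp2.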

Other observations

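Genes that missed a single pairing extend some of the groups above; the genes given here were chosen after their values were seen. Among those lower in 3 pairings, 14 missed only 1,5-naphthalenediamine against pentachloronitrobenzene. These included the plasma protein genes F10 (-0.44 ± 0.0741), Plg (-0.27 ± 0.0497) and Serpinf2 (-0.41 ± 0.0624), which belong to coagulation and fibrinolysis. F2, prothrombin, and Hc, complement C5, missed only 2,3-benzofuran against pentachloronitrobenzene, at -0.29 ± 0.0573 and -0.69 ± 0.106. Of 10 that missed only 1,5-naphthalenediamine against N-(1-naphthyl)ethylenediamine, Tap1 (-0.74 ± 0.103), Tapbp (-0.55 ± 0.0888) and Psmb8 (-0.65 ± 0.114) serve antigen presentation. The NRF2 target Gstm3 (1.69 ± 0.221) and Pir, pirin (0.69 ± 0.114), were higher in 3 pairings and missed only 2,3-benzofuran against pentachloronitrobenzene. Gstm3 lies in the same gene family as Gstm1, Gstm2 and Gstm4. The sulfiredoxin gene Srxn1 (1.04 ± 0.168) missed only 1,5-naphthalenediamine against pentachloronitrobenzene.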
